A study of Mus musculus with 5 samples.

Results

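The genes described here are 6 lipid genes, measured in liver. Plin2 coats lipid droplets, Fabp1 is the liver fatty acid binding protein and Lpl is lipoprotein lipase. Adipoq is the adipocyte hormone adiponectin, Thrsp a nuclear protein of lipogenic tissues and Elovl5 an elongase of polyunsaturated fatty acids. The 6 genes were chosen by name, with their ratios on these arrays already known, and matched by symbol in the platform's annotation. All 6 had a probe, out of 9930 named genes, and together they had 9 of the 20355 probes. The livers came from 5 male mice aged 17 weeks that were homozygous for eyl (eyeless), a mutation of the Pitx3 gene, which encodes a homeodomain factor of lens and midbrain dopamine neurons. The label of each sample gives the strain as Pitx3eyl-/-. Each mutant liver shared a 2-colour cDNA array with an RNA pool from wild-type mice, which the sample labels describe as 4 animals and the labelling protocol as 6. The mutant RNA was in Cy5 on replicates 1, 2 and 4 and in Cy3 on replicates 3 and 5, the dye swaps. The pool stood on every array and no wild-type liver was measured on its own, so the spread between wild-type animals is in none of the errors. The labels do not describe the sex, age or genetic background of the pool.

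Hepatocytes take up fatty acids from the blood or make them from acetyl-CoA, and burn them, export them in lipoproteins or store them as triglyceride in droplets. Lipid droplets are coated by perilipins, and in hepatocytes the main one is perilipin 2, which is degraded when it is not bound to a droplet. Fabp1 carries fatty acids through the hepatocyte cytosol. Plin2 and Fabp1 are both known targets of PPARA, the nuclear receptor that senses fatty acids. Lipoprotein lipase releases fatty acids from circulating triglyceride in muscle and fat, and the adult liver normally makes little of it. Adiponectin is made by adipocytes and acts on liver through the receptors Adipor1 and Adipor2. Thrsp, also called Spot 14, is induced by thyroid hormone, insulin and carbohydrate together with the enzymes of fatty acid synthesis. Elovl5 lengthens polyunsaturated fatty acids between the desaturation steps of Fads2 and Fads1.

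The sequences before the start sites of Plin2, Fabp1 and Thrsp are shown because Plin2 and Fabp1 are targets of PPARA and Thrsp had the lowest coefficient. Each holds the 250 bases before the RefSeq start on GRCm38.p6, 5′ to 3′ on the gene's strand, and promoters of 5 of the 6 genes were matched in RefSeq. Capitals mark the nuclear receptor half-site AGGTCA, the E-box CACGTG, the CCAAT box and the TATA box TATAAA on either strand.
Plin2 (chr4:86670060-86670309, - strand): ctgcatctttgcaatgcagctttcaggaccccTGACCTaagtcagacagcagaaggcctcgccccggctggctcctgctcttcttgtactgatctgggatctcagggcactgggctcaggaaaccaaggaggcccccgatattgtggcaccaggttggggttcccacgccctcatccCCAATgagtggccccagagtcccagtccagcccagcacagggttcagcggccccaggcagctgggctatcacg
Fabp1 (chr6:71199629-71199878, + strand): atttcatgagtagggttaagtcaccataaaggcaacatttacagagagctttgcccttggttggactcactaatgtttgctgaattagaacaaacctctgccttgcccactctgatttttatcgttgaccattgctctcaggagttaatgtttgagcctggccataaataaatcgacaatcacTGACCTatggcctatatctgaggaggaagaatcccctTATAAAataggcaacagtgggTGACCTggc
Thrsp (chr7:97417551-97417800, - strand): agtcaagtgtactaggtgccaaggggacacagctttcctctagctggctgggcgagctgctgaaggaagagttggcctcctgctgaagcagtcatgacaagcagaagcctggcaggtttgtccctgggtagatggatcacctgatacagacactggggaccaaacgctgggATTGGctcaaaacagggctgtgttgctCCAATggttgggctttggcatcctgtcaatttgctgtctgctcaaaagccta
The half-site occurred in Plin2 and Fabp1 among the 5 promoters and in 14.0% of 32851 promoters of this length. Fabp1 held it at 67 to 62 and at 9 to 4 bases before the start, and Plin2 at 218 to 213, each on the reverse strand. No member promoter (0 of 5) held 2 exact half-sites in direct repeat with any 1 base between them on either strand, a form found in 0.0335% of promoters. The CCAAT box lay in 4 of the 5 promoters, those of Plin2, Thrsp, Elovl5 and Adipoq, and in 33.8% of all. The TATA box lay in that of Fabp1 (12.4% of all) and the E-box in that of Elovl5 (6.02% of all).

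Each deposited value is a log2 ratio between both channels of an array, and a ratio gives no level, so neither levels of different genes nor the presence of a transcript can be read from them. They are not centred: the array medians were -0.189, -0.035, -0.002, 0.114 and 0.229 for replicates 1 to 5. Between 66.7% and 78.1% of the probes had a value on an array, and in all 788 of 73450 values were constant codes over 12 in absolute size, which were set to missing. Positive ratios are taken to mean more RNA in the mutant on every array, and for the 2 dye swaps this direction is not known. The labels list the mutant as channel 1, and the code was positive for each Cy5 mutant array and negative for each Cy3 one, as if the swapped arrays had been turned before deposit. Across probes, which are not independent replicates, arrays of the same dye orientation had a Pearson r of -0.02 to 0.11 and arrays of opposite orientation one of -0.26 to -0.05. For several results, values with the signs of the Cy3 arrays turned are also given. Since no levels are given, the tissue label could not be checked against hepatocyte markers. The tested probes of 7 of the 14 hepatocyte markers had a median SD between arrays of 0.52, against 0.98 over all tested probes. In bulk tissue, fewer cells of a type and less RNA per cell cannot be told apart.

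The comparison asks whether liver transcripts differ between the Pitx3 mutant and wild-type mice. A probe was tested with values on at least 4 arrays in both dye orientations. The mutant coefficient is the log2 ratio that weights both orientations equally. Each SE is limma's moderated one, which draws on the spread of all tested probes or genes besides the probe's own arrays. The number n counts arrays. Of 11300 probes limma called 0 (0%) at an adjusted p under 0.05, and 470 (4.16%) had an unadjusted p under 0.05. Of the 9 lipid gene probes 7 were tested, at least 1 for each of the 6 genes, and 0 were called. Since these genes were picked with this contrast in view, their values are given as a description. The coefficient was above 0 for 5 of the 7 tested probes (53.9% of all tested probes) and below 0 for the other two. All measured arrays lay above 0 for 2 of them, Plin2 probe 3377 and Elovl5 (4.59% of all tested probes), and all lay below 0 for 0 of them (3.37%). With the sign of the Cy3 arrays turned, 0 of the 7 probes lay on 1 side on all measured arrays, where 3.75% of all tested probes lay above and 7.9% below 0. The plot of array values shows each probe apart.

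**Figure D1:**
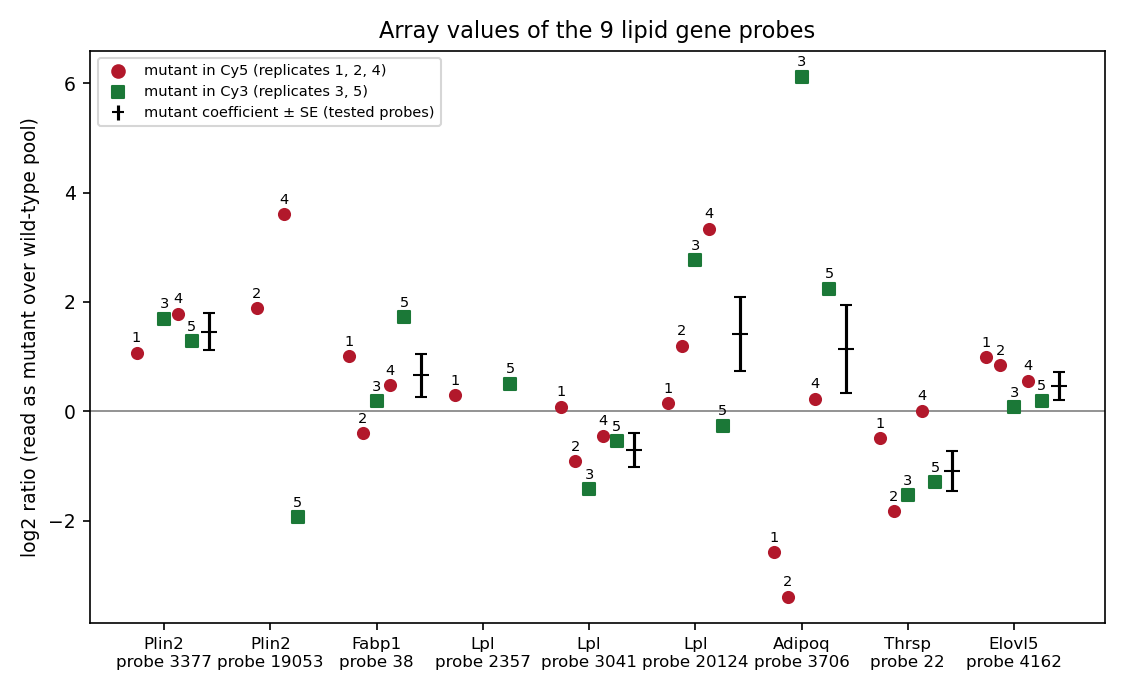
Log2 ratio (y axis) of each of the 9 probes (x axis) on every array that measured it, with the replicate number beside the point, circles for the mutant in Cy5, squares for Cy3, and the black bar for the mutant coefficient ± SE of the 7 tested probes. Plin2 probe 3377 and Elovl5 lie above 0 on every array that measured them, and Adipoq spreads from -3.39 to 6.12.

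Plin2, the droplet coat, had the highest coefficient of the 7 tested probes. Probe 3377 gave log2 ratios of 1.07, 1.70, 1.79 and 1.28 on replicates 1, 3, 4 and 5, and was not measured on replicate 2. All 4 arrays lay above 0, within a range of 0.71. The coefficient was 1.46 ± 0.34 (SE, n = 4), a 2.75-fold ratio, and 97.1% of the tested probes had a lower one. On its own array each value stood above 79.1% to 92.9% of the other values. The mean was 1.43 with the mutant in Cy5 and 1.49 with it in Cy3. The second Plin2 probe, 19053, was measured on 3 arrays and was not tested. It gave 1.89, 3.61 and -1.94 on replicates 2, 4 and 5, so the probes had the same sign on 1 of the 2 arrays that measured both. With both probes averaged, Plin2 stood at 1.28 ± 0.44.

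Plin3, a further perilipin, had 0.69 ± 0.39 (SE, n = 4) on probe 17966, with arrays from -0.06 to 0.98. Averaged with its second probe, which was measured on 2 arrays, Plin3 had 0.47 ± 0.75, with arrays from -2.01 to 1.07. Dgat2, which makes triglyceride, had 0.52 ± 0.43 (n = 5) on probe 13712, with 3 arrays above and 2 below 0. Averaged with its second probe, which was measured on 1 array, Dgat2 had 0.22 ± 0.36. Cidec and Pnpla2 were each measured on 3 arrays only. The list's highest values, named after they were seen, were those of Fitm1, a lipid droplet assembly protein best known from muscle, at 2.17 ± 0.45 (n = 4, arrays from 0.47 to 3.67) and of Hsd17b11, a droplet-associated dehydrogenase, at 1.64 ± 1.06 (n = 4, arrays from -0.50 to 6.51). Of the list of lipid droplet and storage genes, 13 of 27 were tested, Plin2 included: 8 lay above and 5 below 0, with a median of 0.09 against 0.03 over all 6706 genes tested, and limma called 0 of them in either direction (0% of all genes).

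Fabp1, which binds fatty acids in hepatocytes, stood at 0.66 ± 0.39 (SE, n = 5), a 1.58-fold ratio. Its probe gave 1.01, -0.40, 0.19, 0.48 and 1.73 on replicates 1 to 5. Replicate 2 alone was below 0, and the highest value came from a dye swap. The mean was 0.36 in the Cy5 orientation and 0.96 in Cy3. The coefficient depended on single arrays: it was 0.27 without replicate 5 and 1.04 without replicate 3. Fabp4, the binding protein of adipocytes and macrophages, is described with Adipoq. Slc27a2, a fatty acid transporter and acyl-CoA synthetase of liver, had -0.21 ± 0.52 (n = 4). Fabp5 was measured on 3 arrays.

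Lpl had 3 probes that name the same transcript, and they did not give the same picture. Probe 20124 gave 0.15, 1.20, 2.77, 3.34 and -0.26 on replicates 1 to 5, above 0 on 4 of 5 arrays. Probe 3041 gave 0.08, -0.92, -1.43, -0.45 and -0.55, below 0 on 4 of 5 arrays. The coefficient was 1.41 ± 0.67 for probe 20124 and -0.71 ± 0.31 for probe 3041 (SE, n = 5 each). These 2 probes had the same sign on 2 of the 5 arrays, and probe 20124 minus probe 3041 ran from 0.07 to 4.19. Probe 20124 was the more variable, with an SD of 1.58 against 0.56, and its coefficient was 0.65 without replicate 3 and 2.16 without replicate 5. The third probe, 2357, was measured on replicates 1 and 5 only, at 0.30 and 0.50. The average of the probes, 0.44 ± 0.35, lies between values of opposite sign.

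Angptl4, an inhibitor of lipoprotein lipase and a PPARA target, had -0.35 ± 0.35 (SE, n = 5), with 4 of 5 arrays below 0. Gpihbp1, which anchors the lipase to the capillary wall, was measured on 2 arrays. Of the list of fatty acid uptake, binding and lipase genes, 14 of 28 were tested, with 6 above and 8 below 0 and a median of -0.05. The list of fatty acid oxidation genes and PPARA targets had 9 of 27 tested, with 4 above and 5 below 0 and a median of -0.04. Without Plin2 and Fabp1 the list of oxidation genes had 2 above and 5 below 0 and a median of -0.22. Limma called 0 genes of either list.

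Adipoq, the adipocyte hormone, had the widest spread of the 6 genes. Its probe gave -2.58, -3.39, 6.12, 0.23 and 2.24 on replicates 1 to 5. Its mean was -1.91 in Cy5 and 4.18 in Cy3. The SD between arrays was 3.85, and 99.1% of tested probes had a lower one. The coefficient was 1.13 ± 0.81 (SE, n = 5) and the dye coefficient, which is the Cy5 mean minus the Cy3 mean divided by 2, was -3.05. Its dye coefficient exceeded its mutant coefficient in size, as in 52.9% of all tested probes and in 1 of the 7 of the lipid genes, its own. Without replicate 3 the mutant coefficient was 0.16, without replicate 4 it was 0.60 and without replicate 5 it was 2.10.

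Fabp4, a second adipocyte gene, also differed between the dye orientations. It gave -1.41, -2.07 and -2.28 with the mutant in Cy5 (replicates 1, 2 and 4) and 1.58 and 2.38 with it in Cy3 (replicates 3 and 5). The groups did not overlap, its mutant coefficient was 0.03 ± 0.31 and its dye coefficient was -1.95. Of 6364 probes measured on all 5 arrays, 4.68% were likewise below 0 on each Cy5 array and above 0 on each Cy3 array, and 3.35% showed the reverse. The other tested adipocyte marker probes had dye coefficients above 0, at 0.28 and 0.16 for Lpl and 1.63, 0.57 and 0.15 for Car3. The probes of Thrb, a thyroid hormone receptor, had dye coefficients of -1.42 and -2.94, with 4 arrays each. If the swapped arrays had not been turned before deposit, Fabp4 would lie between -2.38 and -1.41 on all 5 arrays, and Adipoq would be below 0 on 4 of 5. With the signs of the Cy3 arrays turned in this way, limma gave Fabp4 an adjusted p of 0.429 and called 0 of 11300 probes (0%), and 7.38% had an unadjusted p under 0.05. The coefficients would then be -0.03 for Plin2 probe 3377, -0.30 for Fabp1, 0.28 and 0.16 for Lpl probes 3041 and 20124, -3.05 for Adipoq, 0.32 for Thrsp and 0.33 for Elovl5. An effect of the dye and swapped arrays left unturned cannot be told apart with these values.

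Of the 12 adipocyte markers, 9 had a probe and 4 were tested (Adipoq, Fabp4, Lpl and Car3, the last also abundant in liver). All 4 coefficients were above 0, with a median of 0.42, where 53.7% of all tested genes were above 0. The median over these 4 genes was -0.62, -0.97, 1.12, 0.63 and 1.07 on replicates 1 to 5, and limma called 0 of them. With the arrays centred on their medians, 3 of the 4 were above 0. Adipoq and Lpl were chosen with their ratios known, and the Lpl value averages probes of opposite sign. Without them the 2 tested genes, Fabp4 and Car3, had a median of 0.21. With the sign of the Cy3 arrays turned, 2 of the 4 coefficients were above 0, with a median of -0.90. The part of adipose tissue RNA in these values was not tested. The adiponectin receptors lay near 0, Adipor1 at 0.20 ± 0.30 and Adipor2 at 0.15 ± 0.29 (SE, n = 5 each), each with 3 arrays above and 2 below 0. Cdh13, which binds adiponectin at the cell surface, had 0.34 ± 0.32 on one probe and -0.22 ± 0.80 on another. Adiponectin and its receptors together, 4 genes tested of 4, had 4 above 0 and a median of 0.19, and 2 above 0 and a median of -0.25 with the sign of the Cy3 arrays turned. The macrophage markers, with 3 of 11 tested, had 1 above and 2 below 0, and the hepatocyte markers had 3 above and 4 below 0, with a median of -0.19 and of -0.02 in that order. Among the macrophage markers the cathepsin gene Ctss, named after its value was seen, had 2.41 ± 0.48 (n = 4). The list's median was 0.29 without replicate 1 or without replicate 4, when 5 genes could be tested. It was 0.28 without replicate 3, when 2 genes could be tested. Without replicate 2 it was -0.26 and without replicate 5 it was -0.51.

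**Figure D2:**
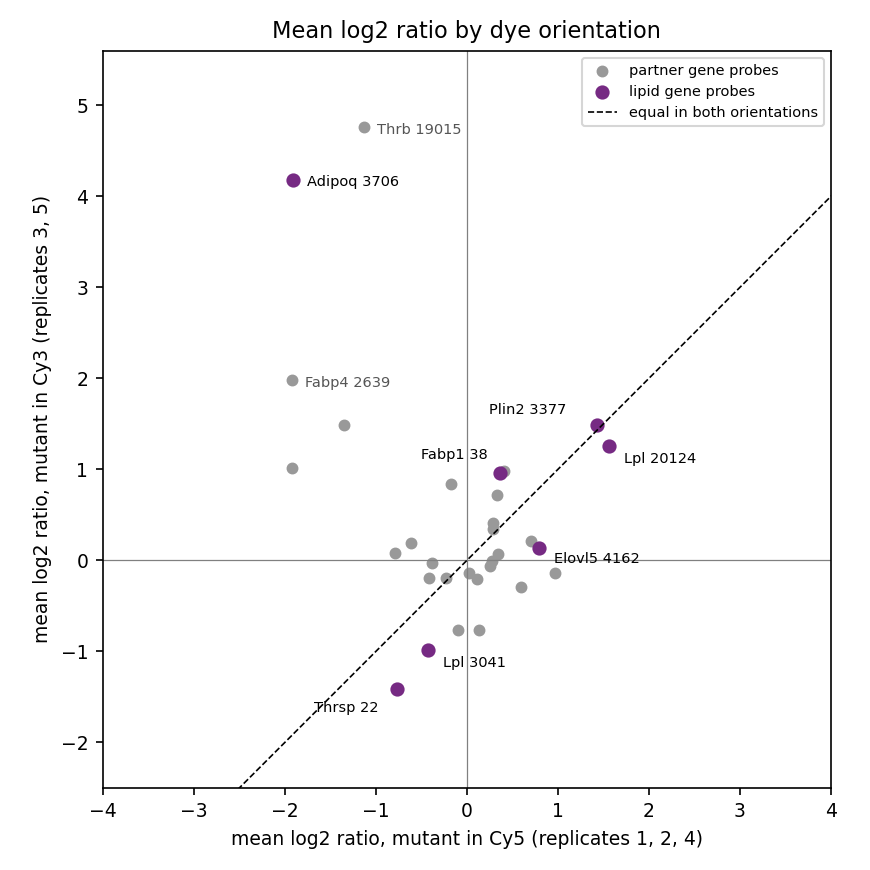
Mean log2 ratio of each tested probe with the mutant in Cy5 (x axis, replicates 1, 2 and 4) and with it in Cy3 (y axis, replicates 3 and 5), for the 7 lipid gene probes (purple) and the 24 partner gene probes (grey). The dashed line marks equal means, and Plin2 probe 3377 lies near it at 1.43 and 1.49. Adipoq, at -1.91 and 4.18, and Fabp4, at -1.92 and 1.98, lie far from it. So does the partner gene probe Thrb 19015, with a dye coefficient of -2.94.

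Thrsp, the lipogenic nuclear protein, had the lowest coefficient of the 7 tested probes, -1.09 ± 0.37 (SE, n = 5), a ratio of 0.469. Its probe gave -0.50, -1.83, -1.54, 0.01 and -1.30 on replicates 1 to 5. Replicate 4 lay just above 0 and the other 4 arrays below it. Of the tested probes 4.19% had a lower coefficient. The mean was -0.77 in Cy5 and -1.42 in Cy3, and leaving out 1 array at a time gave coefficients from -1.29 to -0.83.

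The enzymes of fatty acid synthesis gave values of either sign, and their difference from Thrsp was not tested. Me1, malic enzyme, which supplies NADPH for fatty acid synthesis, had 0.35 ± 0.27 on one probe and 0.46 ± 0.36 on the other (SE, n = 5 each). The first of these Me1 probes was above 0 on all 5 arrays, from 0.02 to 0.60. Of the 24 tested partner gene probes, 1 was above 0 on all measured arrays, this probe, where 4.59% of all tested probes were. Acly, which makes cytosolic acetyl-CoA, had -0.32 ± 0.39, with 0.52, -1.06, -0.91, 0.93 and -0.62 on replicates 1 to 5, and Acaca, acetyl-CoA carboxylase, -0.45 ± 0.84 on 4 arrays that ran from -3.93 to 2.09. Scd1, the stearoyl-CoA desaturase, had 0.13 ± 0.37. Fasn was measured on 2 arrays and Mid1ip1, the paralogue of Thrsp, on 3. Thrb, the main thyroid hormone receptor of liver, had 0.07 ± 0.70 and 1.82 ± 0.84 on 2 probes with 4 arrays each, and the second of them ran from -2.48 to 4.76.

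Elovl5, the elongase, had 0.46 ± 0.26 (SE, n = 5), a 1.38-fold ratio. Its probe gave 0.99, 0.84, 0.07, 0.56 and 0.19 on replicates 1 to 5. All 5 arrays were above 0, with a mean of 0.80 in Cy5 and 0.13 in Cy3. Relative to the median of each array, replicate 5 was at -0.04 and the others were above 0. Its SD of 0.40 was small, with 13.9% of tested probes lower. Leaving out 1 array at a time gave 0.42 to 0.52, the narrowest such range of the 7 tested probes.

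Neighbouring steps of the pathway gave values of either sign. Elovl1, an elongase of saturated very long chains, had -0.44 ± 0.26 (SE, n = 5), and Elovl6, which extends palmitate, -0.31 ± 0.37 on one probe and 0.41 ± 0.42 on another with 4 arrays. Fads1, the delta-5 desaturase, had -0.05 ± 0.33 on the probe with 5 arrays and -0.51 ± 0.39 with its 3 probes averaged, the others having 3 arrays each, and both probes of Fads2 were measured on 3 arrays. Of the list of fatty acid synthesis, elongation and desaturation genes, 16 of 24 were tested, with 7 above and 9 below 0 and a median of -0.03. Thrsp and Elovl5 held the lowest and the highest value of that list, and both were chosen with their ratios known. Fads2, with its probes averaged, had 0.46 ± 0.86 (n = 4), level with Elovl5.

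Ppara had 0.10 ± 0.32 and 0.32 ± 0.38 on its 2 probes measured on all 5 arrays. Mlxipl, which encodes the carbohydrate response factor ChREBP, had -0.21 ± 0.28, and Nr1h3, the liver X receptor alpha, -0.06 ± 0.27 (SE, n = 5 each). Averaged with its second probe, which was measured on 3 arrays, Mlxipl had -0.51 ± 0.46, with arrays from -2.60 to 0.64. Of the list of lipid transcription factors and thyroid response genes, 11 of 17 were tested, with 8 above and 3 below 0 and a median of 0.29. Its highest value, named after it was seen, was that of Scap, the escort protein of the SREBP factors, at 2.70 ± 0.51 (n = 4), with arrays from 1.68 to 4.46. Ppargc1a, a coactivator of oxidative metabolism also named after its value was seen, had 0.60 ± 0.46 (n = 5), with arrays from -1.61 to 3.02. Of the 37 partner genes of the 6, 19 were tested with 24 probes, of which 14 lay above and 10 below 0 with a median of 0.08, and 0 were called. Over all 6 lipid lists without the 6 genes, 30 of the 58 tested genes lay above and 28 below 0, a median of 0.02, and limma called 0, where all tested genes had a median of 0.03. 

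**Figure D3:**
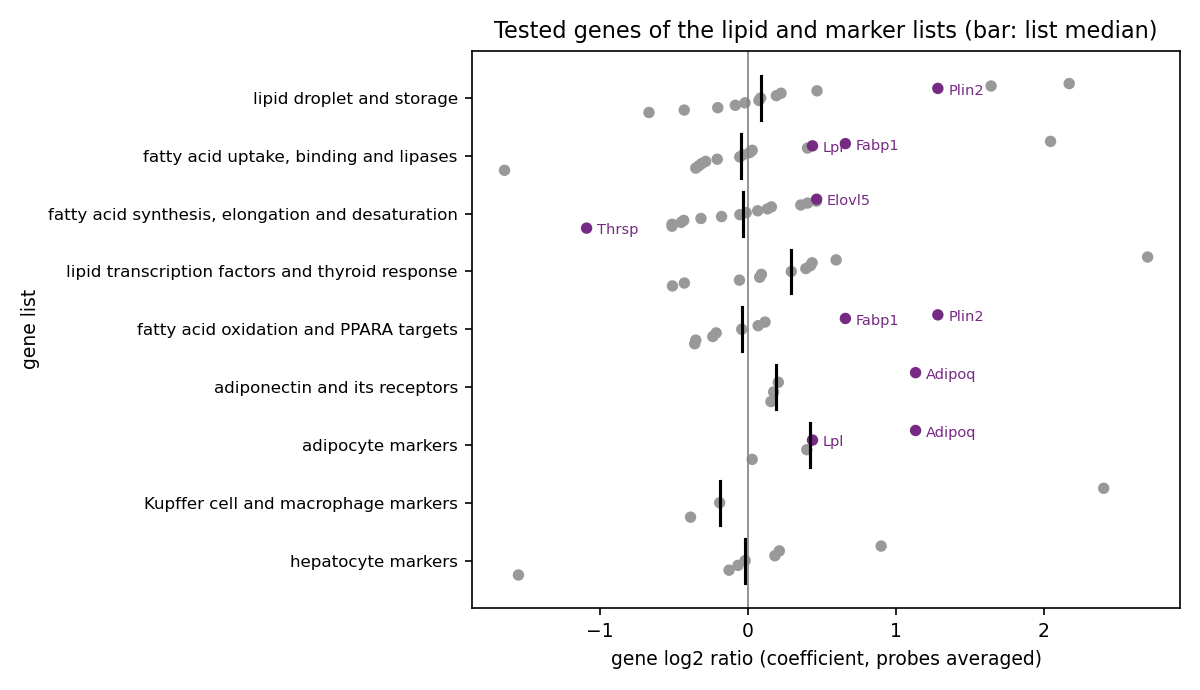
Coefficient (x axis, log2 ratio, probes of a gene averaged) of each tested gene in the 6 lipid lists and the 3 marker lists (y axis), with the described genes in purple and a bar at each list's median. The medians lie between -0.19 and 0.42. Plin2, at 1.28, and Thrsp, at -1.09, were chosen with their ratios known and lie away from the medians of their lists. In the droplet list Fitm1, at 2.17, and Hsd17b11, at 1.64, lie farther out than Plin2.

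In order from the lowest, the coefficients ran Thrsp, Lpl probe 3041, Elovl5, Fabp1, Adipoq, Lpl probe 20124 and Plin2 probe 3377. Neighbours in this order lay within the sum of their SEs, except Lpl probe 3041 and Elovl5. All coefficients come from the same arrays and pool, so this sum does not measure a difference. Differences between neighbours were not tested. Leaving out 1 array turned the sign of 0 of the 7 coefficients. Turning the sign of the Cy3 arrays changed the sign of 5 of the 7, and the order then ran Adipoq, Fabp1, Plin2 probe 3377, Lpl probe 20124, Lpl probe 3041, Thrsp and Elovl5.

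**Figure D4:**
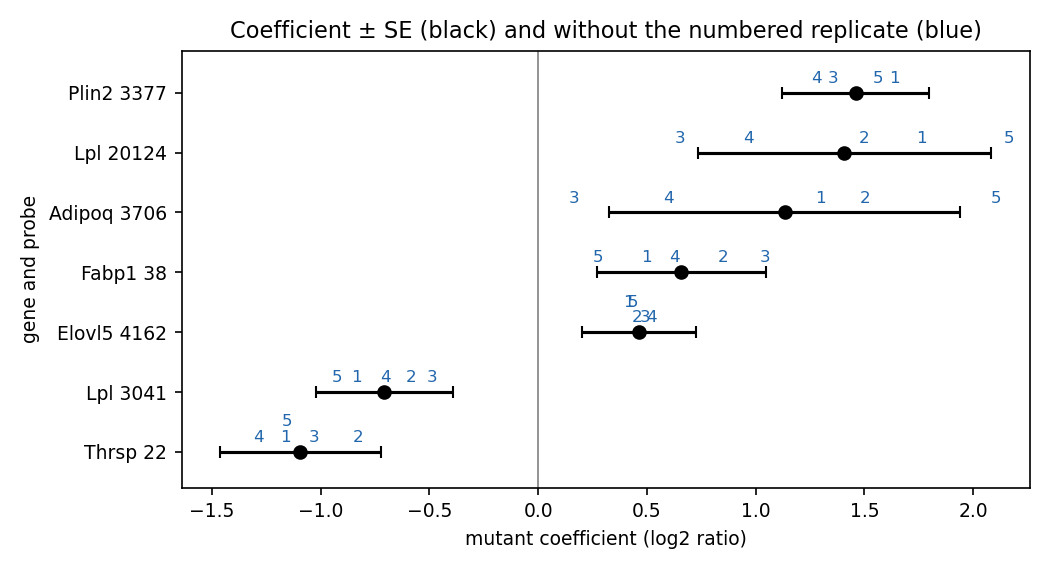
Mutant coefficient (x axis, log2 ratio) of each of the 7 tested probes (y axis), with the SE as a black bar and, in blue, the number of a left-out replicate at the coefficient without it (a replicate that did not measure the probe is not drawn). Elovl5 stays between 0.42 and 0.52, Lpl probe 20124 runs from 0.65 to 2.16 and Adipoq from 0.16 to 2.10.

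The array profile most like each probe was sought by the root mean square difference over 5 arrays, among 4594 named probes measured on all 5. The nearest to Lpl probe 3041 was Hspa5, the endoplasmic reticulum chaperone BiP, at 0.11. Tcf7l2, a WNT pathway transcription factor, was nearest to Elovl5 at 0.16, and Fam219b to Fabp1 at 0.32. Hsd11b1, which regenerates glucocorticoid in liver, was nearest to Thrsp at 0.45, and Spata7 to Lpl probe 20124 at 0.50. Epcam, an epithelial adhesion molecule of bile duct cells, was nearest to Adipoq at 0.77, with -3.03, -2.91, 4.87, -0.73 and 2.09 on replicates 1 to 5. Among the lipid gene probes themselves, the nearest pair was Thrsp and Lpl probe 3041, at 0.62. With 5 arrays and this many probes, close profiles are a description only.

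Of the 39 measured values of the 9 probes, 9 lay at the array's most frequent value plus the log2 of a whole-number ratio. The whole numbers ran up to 20, and ratios of 2 small intensities would give such values. On whole arrays the share of such values was 19.8% to 28.7%, and part of the matches may be coincidence. The 9 values were 2 of Lpl probe 2357, 2 of Lpl probe 20124 and 2 of Plin2 probe 3377. The rest were 1 each of Plin2 probe 19053, Lpl probe 3041 and Adipoq. Fabp1, Thrsp and Elovl5 had 0. Without such values the coefficient of Adipoq was 2.10 and that of Lpl probe 3041 -0.49, and Plin2 probe 3377 and Lpl probe 20124 had too few arrays for the test.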

How the data were processed

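The deposited values are log2 ratios from 1 table of the series, with 0 columns unused. Per the labels' protocols, 20 µg of total RNA per sample were labelled indirectly with Cy3 or Cy5. For the deposited log2 ratios, the scanner, background correction and normalization were not given in the sources used here. Whether the log2 ratios were shifted, scaled or turned by the authors is unknown.

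Values over 12 in absolute size were set to missing. limma 3.58.1 (R 4.3.3) fitted all probes with values on at least 4 arrays in both orientations, with an intercept against 0 and a dye term coded 1 for Cy5 and -1 for Cy3. p-values were adjusted over all tested probes by Benjamini-Hochberg, with a call at an adjusted p under 0.05. limma's prior had 2.24 degrees of freedom, and every SE given is the moderated one. The fit was tested on simulated data. The precision is limited by the number of arrays. Gene lists were counted on values with the probes of a gene averaged, and received no set test. Gene names came from the platform annotation: 14030 probes carried 1 symbol, 5 several and 6320 are unnamed here. The placing of names on rows could not be checked with the values used here, so a value belongs to a probe and its gene name rests on the annotation.

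The 6 genes and all lists (lipid droplet, uptake, synthesis, transcription factor, oxidation, adiponectin, adipocyte, macrophage and hepatocyte) were chosen with earlier results of these data known. Named genes are the 6 genes, their preset partner genes and the nearest profile of each probe measured on all 5 arrays. The adipocyte markers with a probe are named too. Fitm1, Hsd17b11, Scap, Ppargc1a and Ctss were named besides, after their values were seen. Nothing in the labels says more of the replicates than that each is 1 animal. Fits that left out 1 array needed values on at least 3. Alternatives were centring, scaling, no dye term, kept codes, other filters, turned signs and left-out arrays.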

Additional observations from a re-analysis of the deposited data

Results flagged for a closer look

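Among the 31 probes of the lipid genes and their partners with at least 4 arrays, 2 had 1 array far from the others, where chance gives about 1 in 20. Scd1 had a log2 ratio of 1.354 on replicate 4, against -0.338 to 0.121 on the other arrays. Ppara probe 8427 had 1.069 on replicate 1, against -0.184 to -0.010 on the others. No array value of the 6 lipid genes themselves stood apart in this way (0 of 7 tested probes).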

How the results depend on the processing

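The count of probes called by limma was 0 under each of the 14 alternatives. The number with an unadjusted p under 0.05, 470 as reported, was 242 when values on all 5 arrays were required, 255 without simple-fraction values (chosen after seeing the data), 264 genes with probes averaged, and 834 with the sign of the Cy3 arrays turned. The first 3 settings tested fewer features, 6364, 6658 and 6706 in place of 11300. With the turned sign the mutant coefficient is the dye coefficient of the main fit, so 834 counts probes by their dye term. Why that count was higher was not tested. Leaving out 1 array gave 482 to 796, the highest without replicate 1. Those fits needed values on 3 arrays and tested more probes, 11473 to 13490. The 482 were of 13490 without replicate 2, and the 796 of 12604 without replicate 1. For the 7 tested lipid gene probes, 83 of 88 values under an alternative moved by less than 1 SD between arrays. The other 5 were those of Plin2 probe 3377, Fabp1, Lpl probe 3041, Adipoq and Thrsp with the sign of the Cy3 arrays turned, and these 5 also changed sign. Of 117 list medians, 22 changed sign. Among them the droplet list was at -0.14 without replicate 5, the uptake list at 0.04 without replicate 3 and 0.10 without replicate 4, and the synthesis list at 0.01 without replicate 3. Plin2 probe 3377 gave no value when all 5 arrays were required or without simple-fraction values, and Lpl probe 20124 none without them. No paired analysis was possible because there is 1 group of animals and the pool is on every array.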

Other observations

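Further adipocyte marker probes were measured on too few arrays for the test. Cidec, of large lipid droplets, had 3.71, -1.73 and 5.64 on replicates 2, 3 and 5. Retn, the adipocyte hormone resistin, had 3.44, -0.15 and 1.82 on the same arrays. Plin4 had -3.59, -1.15 and -2.54 on replicates 1, 3 and 4, below 0 on each. Plin1, the perilipin of adipocytes, was measured on replicate 5 only, at 2.17. The hormone-sensitive lipase gene Lipe had 0.42, 1.46 and 1.32 on replicates 1, 4 and 5 by one probe, and 0.88 and 2.27 on replicates 1 and 5 by another. Car3 had 3 tested probes. The one measured on all 5 arrays gave 0.90, 1.13, 0.55, 0.43 and 0.48, with a coefficient of 0.67 ± 0.27. The other probes, with 4 arrays each, had 0.58 ± 1.26, with arrays from -1.05 to 5.71, and -0.24 ± 0.65, with arrays from -1.40 to 1.87.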
